A study of Mus musculus with 36 samples.

Results

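Integrins are the receptors by which heart cells hold on to the matrix around them, and laminins are the trimeric proteins that form the core of the basement membrane on the surface of cardiomyocytes and capillaries. Every integrin chain gene (names beginning Itga or Itgb) and every laminin chain gene (Lama, Lamb or Lamc) in the deposited expression table was taken, leaving out the integrin binding proteins, the integrin-like gene Itgbl1 and pseudogenes. That gave 35 genes of the 36128 gene models in the table: 17 integrin alpha chains, 9 integrin beta chains, 4 laminin alpha chains, 2 laminin beta chains and 3 laminin gamma chains. The rule reads gene names only, and it was set with earlier results of these data known. Lama2, Itga6 and Lamb1 were not analysed here, so the set does not cover every chain that a heart can make.

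RNA sequencing was done on 36 mouse heart libraries in 16 groups, all from mice of the CD-1 background, with no transgene or mutant allele named in the labels. The isolated groups held cardiomyocytes purified on Miltenyi columns from hearts 7 days after resection of tissue, 7 days after a sham operation, at postnatal day 4 (P4) and at birth (P0), with n = 3 in each group. Explants, which are dissociated adult cardiomyocytes in culture, were taken at 0, 24, 48 and 72 h (n = 2 per time). Whole ventricle was sampled 1 and 7 days after resection or sham, and without surgery at P0, P4, P7 and in adults, which made 8 groups of 2 libraries. The labels give neither the age at surgery nor how many animals went into a library. They do not say whether replicates were different animals, so p-values measure the spread between libraries, which may be technical. Values are FPKM, fragment counts scaled by the authors to transcript length and library size, and can be compared between genes because they are scaled to length.

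Markers of other cell types were present in the isolated libraries. The summed level of 7 endothelial markers in isolated libraries ran from 19.4 to 394 FPKM after resection, from 420 to 450 FPKM after sham, from 21.2 to 239 FPKM at P4 and from 13.5 to 90.8 FPKM at P0, all of these libraries also holding the 5 cardiomyocyte markers found. Lung epithelial genes, 9 in the list, summed to between 184 and 1200 FPKM in isolated libraries after resection and to between 0.467 and 2.80 FPKM after sham. In ventricle at day 7 they summed to 101 and 222 FPKM after resection and to 5.76 and 27.2 FPKM after sham. The 8 operated ventricle libraries also stood apart from the 8 unoperated ones in the laminin gene Lamb2, as described at the end. In bulk RNA, fewer cells of a type and less RNA per cell cannot be told apart.

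An integrin is a pair of 1 alpha and 1 beta chain. The beta 1 chain (Itgb1) pairs with most alpha chains, and the alpha chain sets the ligand: alpha 7 binds laminin in striated muscle, alpha 5 binds fibronectin, and alpha 1, 2, 10 and 11 bind collagens. The alpha V chain pairs with beta 1, 3, 5, 6 or 8, binding vitronectin, fibronectin and the latent form of TGF-beta, while the beta 2 chain with alpha L, M, X or D belongs to leukocytes. A laminin joins 1 alpha, 1 beta and 1 gamma chain. Laminins with alpha 4 or alpha 5 are known from vessel walls, laminins with beta 2 from muscle basement membrane, gamma 1 is part of most laminins, and Lama3 and Lamb3 are chains of an epithelial laminin.

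Itgb1 was the most abundant of the 9 beta chains in every group. Its level ran from a group mean of 149 ± 5.26 FPKM in explants at 0 h to 527 ± 1.24 FPKM in ventricle 7 days after resection (SD, n = 2 each), and it made up 83.5% of the summed beta chain level in adult ventricle, its lowest share, and 93.2% in isolated cells after sham, its highest. A mean of 5 FPKM was passed in all 16 groups by 6 members. These were Itgb1, the fibronectin receptor chain Itga5, the tenascin and osteopontin receptor chain Itga9, the vitronectin receptor chain Itgb5, Lamb2 and Lamc1. Another 9 passed that level in some groups: Itga1, Itga3, Itga7, Itga8, Itgam, Itgav, Itgb6, Lama4 and Lama5. The laminin alpha 1 chain Lama1, the leukocyte chains Itgad, Itgae, Itgax, Itgb2l and Itgb7, and the collagen receptor chain Itga11 never reached 1 FPKM in any of the 36 libraries.

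Among the low members, the platelet chain Itga2b reached at most 2.68 FPKM and its partner Itgb3 at most 5.21 FPKM. Itga2, Itga4, Itga10, Itgal, Itgb4, Itgb8, Lama3 and Lamc3 stayed below 2 FPKM in all libraries, and the epithelial laminin chain Lamb3 reached at most 3.58 FPKM. The leukocyte beta chain Itgb2 had its highest library at 5.08 FPKM, in ventricle 1 day after sham.

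**Figure D1:**
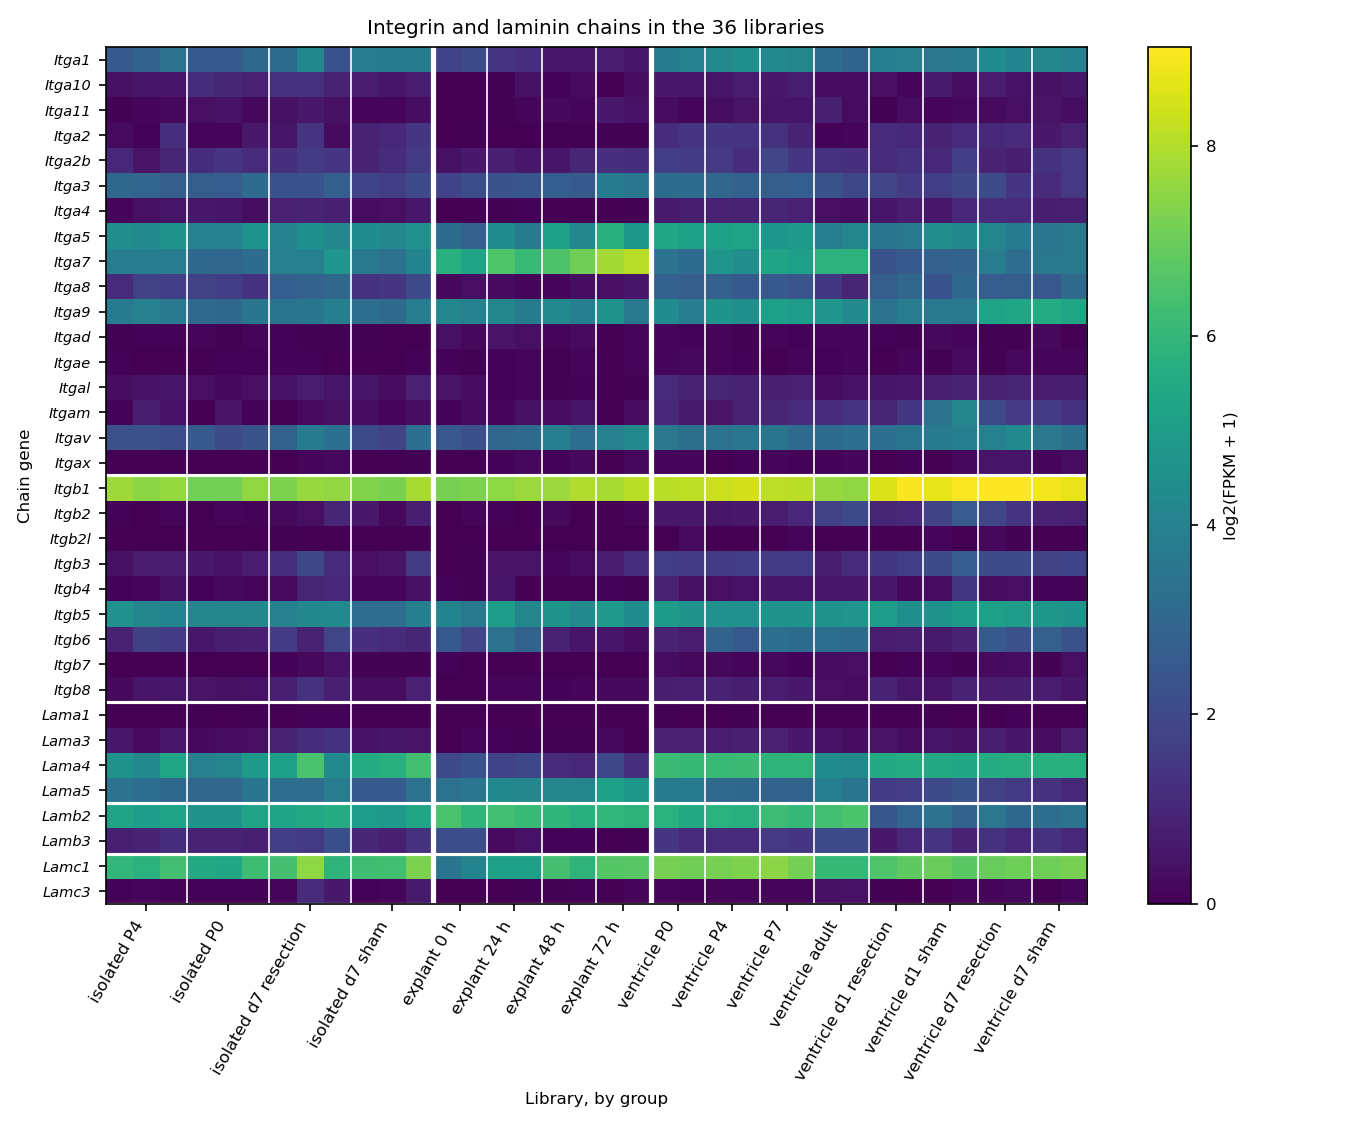
Level of 34 of the 35 chain genes (rows, by family) in each of the 36 libraries (columns, by group) as log2(FPKM + 1). Itgb1 is the brightest row throughout, reaching 527 FPKM after resection, Itga7 is brightest in explants at 72 h, and Lamb2 is dark in the 8 operated ventricle libraries.

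The highest level of a member could lie in any of the 3 preparations. The muscle laminin receptor Itga7 was highest in explants at 72 h (247 ± 29.8 FPKM) and lowest in ventricle 1 day after resection (4.52 ± 0.605 FPKM; SD, n = 2 each). Itga9 was highest in ventricle 7 days after sham (42.5 ± 5.62 FPKM, n = 2) and lowest in isolated cells at P0 (8.45 ± 1.71 FPKM, n = 3). Itga5 ran from 6.98 ± 1.57 FPKM in explants at 0 h to 39.0 ± 17.5 FPKM in explants at 72 h, close to its mean of 36.9 ± 3.70 FPKM in P0 ventricle (SD, n = 2 each). Itgav had its lowest mean, 3.65 ± 0.161 FPKM, in isolated cells at P4 (n = 3) and its highest, 16.8 ± 3.04 FPKM, in ventricle 7 days after resection (n = 2). Itgb5 ran from 10.3 ± 3.25 FPKM in isolated cells after sham (n = 3) to 32.1 ± 2.76 FPKM in ventricle 7 days after resection (n = 2). The leukocyte chains were at or below 0.941 FPKM (Itgb2) and 0.700 FPKM (Itgam) in all isolated and explant libraries.

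On build mm9, the main integrin genes lie at chr8:131209553-131257100 (Itgb1), chr15:103174719-103197194 (Itga5), chr10:128370868-128395333 (Itga7), chr9:118515807-118810121 (Itga9), chr2:83564553-83647073 (Itgav) and chr7:135206153-135271674 (Itgam). The main laminin genes lie at chr10:38685320-38829994 (Lama4), chr2:179911077-179960564 (Lama5), chr9:108382192-108392861 (Lamb2) and chr1:155066051-155179916 (Lamc1). Each value is of the whole gene, with no split by exon or transcript.

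The laminin chains also differed between preparations. Lama4 averaged 69.1 ± 3.20 FPKM in ventricle at P4 and 1.09 ± 0.0339 FPKM in explants at 48 h, and Lamc1 averaged 160 ± 23.7 FPKM in ventricle at P7 and 13.2 ± 3.89 FPKM in explants at 0 h. Lama5 ran the other way, with its highest mean in explants at 72 h (30.0 ± 4.58 FPKM) and its lowest in ventricle 7 days after sham (1.24 ± 0.280 FPKM). Lamb2 was at 83.5 ± 8.21 FPKM in adult ventricle and at 5.53 ± 1.61 FPKM in ventricle 1 day after resection (SD, n = 2 in each of these groups).

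Promoter sequences from RefSeq (mouse build GRCm38.p6) were matched by symbol for 22 of the 35 members, which gave 25 windows of the 250 bases before a start site. The 4 chains printed here are those with a single window that were called at 72 h in explants under every scaling, shown because 3 of them were higher (Itga5, Itgav and Lama5) and 1 was lower (Itga1). Itga5 is the window chr15:103366792-103367041 on the minus strand, Itgav is chr2:83724147-83724396 on the plus strand, Lama5 is chr2:180225860-180226109 on the minus strand and Itga1 is chr13:115101965-115102214 on the minus strand. Each is written 5′ to 3′ along the gene. Capitals mark a GC box (GGGCGG), the bases bound by Sp1 factors, a TEAD site (GGAATG) or an AP-1 site (TGANTCA), read on either strand.
Itga5: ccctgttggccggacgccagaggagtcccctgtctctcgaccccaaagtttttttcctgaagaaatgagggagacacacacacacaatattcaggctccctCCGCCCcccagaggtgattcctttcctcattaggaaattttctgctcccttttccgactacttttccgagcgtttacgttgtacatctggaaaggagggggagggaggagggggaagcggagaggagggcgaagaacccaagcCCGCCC
Itgav: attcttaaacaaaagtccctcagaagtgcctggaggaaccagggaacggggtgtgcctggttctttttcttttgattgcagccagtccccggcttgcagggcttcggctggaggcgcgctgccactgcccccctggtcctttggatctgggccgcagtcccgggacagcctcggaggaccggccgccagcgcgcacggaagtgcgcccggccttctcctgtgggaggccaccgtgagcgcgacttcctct
Lama5: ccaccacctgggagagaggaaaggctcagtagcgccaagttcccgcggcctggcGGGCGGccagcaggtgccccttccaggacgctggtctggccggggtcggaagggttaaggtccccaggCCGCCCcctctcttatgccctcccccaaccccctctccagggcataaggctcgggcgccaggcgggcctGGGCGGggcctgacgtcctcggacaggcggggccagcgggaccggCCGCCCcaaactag
Itga1: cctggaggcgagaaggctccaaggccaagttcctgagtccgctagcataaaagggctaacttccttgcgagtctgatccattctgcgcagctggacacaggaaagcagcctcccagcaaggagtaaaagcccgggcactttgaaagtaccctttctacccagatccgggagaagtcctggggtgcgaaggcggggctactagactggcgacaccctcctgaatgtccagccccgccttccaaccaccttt

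Itga5 and Lama5 hold GC boxes in these windows, while Itgav and Itga1 hold none of the 3 motifs. Over the 25 windows of members, 8 held a GC box, 3 a TEAD site and 1 an AP-1 site, that one in Itgax. Over all 32851 promoters in the table, 32.7% held a GC box, 12.6% a TEAD site and 6.7% an AP-1 site. A match describes letters only.

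Comparisons were made with limma on log2(FPKM + 1), and a member was called where the p-value, adjusted over all genes tested by the Benjamini-Hochberg method, was under 0.05. This scale understates the change of genes near or below 1 FPKM. A member was tested where it had at least 1 FPKM in at least 2 libraries of the fit, so members with no level in a preparation carry no test.

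The first question was how the chains change as the ventricle matures after birth. By P7 the muscle laminin receptor Itga7 and the beta chain Itgb6 had risen most, Itga9 had also risen, and Lama5 had fallen. In the adult, Itga7 and Itgb6 stayed high, while the fibronectin receptor Itga5 and the vessel laminin Lama4, with Lamc1, fell. Fibronectin itself (Fn1) fell by 3.44 on the log2 scale in the adult.

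At P7, 5 of 22 members tested were called, 3 higher and 2 lower, beside 12.6% of all 14306 genes tested (4.35% higher and 8.21% lower). Among all genes 34.6% of calls were higher, against 59.2% under median-of-ratios scaling, where 3 members were higher and 1 lower. With quantile normalization 5 were higher and 1 lower, and Itga1 (0.56) and Lamb2 (0.63) were called in addition. The median change of the members was 0.01 on the log2 scale and that of all genes was -0.14. Itga7 had 38.0 and 33.1 FPKM at P7, against 9.96 and 7.99 FPKM at P0. The 2 ages did not overlap, and at P4 the level lay between them, at 25.2 and 21.2 FPKM. The change in Itga7 was 1.88 ± 0.18 (log2, SE; limma adjusted p = 4.11e-05). Itgb6, whose pairing with alpha V activates TGF-beta in epithelia, had 8.92 and 8.27 FPKM at P7, against 0.875 and 0.603 FPKM at P0, a change of 2.47 ± 0.19 (limma adjusted p = 9.63e-06). Its 2 P4 libraries, at 6.35 and 4.91 FPKM, were already well above both P0 libraries.

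Itga9 had 33.7 and 30.3 FPKM at P7, against 19.4 and 13.4 FPKM at P0, and rose by 0.94 ± 0.19 (limma adjusted p = 0.00704). Both P7 libraries were above both P0 libraries, but the call was lost without P7 replicate 1 or without P0 replicate 2. Lama5 had 6.16 and 6.31 FPKM at P7, against 12.3 and 11.9 FPKM at P0, and fell by 0.86 ± 0.17 (limma adjusted p = 0.00515). The P4 libraries of Lama5, at 7.70 and 7.33 FPKM, also lay below both P0 libraries. The 17 other members had estimates between -0.51 and 0.48 and were not called.

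Markers of other cell types moved between the same ages. Of 6 atrial markers 4 were called lower at P7, among them the atrial myosin light chain Myl7 (-5.02), and their summed level was 86.5 to 171 FPKM at P7 and 362 to 1266 FPKM at P0. Of 8 fibroblast markers 5 were called higher, with sums of 771 to 815 FPKM at P7 and 483 to 646 FPKM at P0. Of 7 epicardial markers 5 were called lower, with sums of 38.9 to 39.1 FPKM at P7 and 51.2 to 64.5 FPKM at P0. In the adult 5 of the atrial and 4 of the epicardial markers were called lower than at P0, beside 43.6% of all genes. The fibroblast markers called in the adult went both ways, with Col1a1, Tcf21 and Pdgfra lower and Dcn higher. Mural markers also went both ways. At P7 Rgs5, Kcnj8 and Pdgfrb were called higher and Cnn1 and Cspg4 lower. In the adult Rgs5 was called higher and Cnn1, Cspg4 and Pdgfrb lower. The cardiomyocyte markers Tnni3 and Ryr2 were called higher in the adult. The part of these cell types in the levels of the chains was not tested.

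In the adult, 15 of 22 members tested were called, 5 higher and 10 lower, beside 56.9% of all genes (13.4% higher and 43.6% lower), so the members' share was near the background. The median of all genes was itself at -0.36 and that of the members at -0.35. Among all genes 23.4% of calls were higher, and 53.1% were higher after median-of-ratios scaling, under which 8 members were higher and 6 lower.

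Itga7 had 55.2 and 54.9 FPKM in the adult, against 9.96 and 7.99 FPKM at P0, a rise of 2.5 ± 0.18 (limma adjusted p = 3.13e-07). It rose relative to the median of all genes as well, by 2.86. Itgb6 had 8.55 and 8.14 FPKM in the adult, against 0.875 and 0.603 FPKM at P0, and rose by 2.43 ± 0.19 (limma adjusted p = 5.8e-07), its adult libraries lying within the range of those at P7 or just below it. Lamb2 had 77.7 and 89.3 FPKM in the adult, against 53.5 and 44.6 FPKM at P0. The rise of Lamb2 by 0.76 ± 0.22 (limma adjusted p = 0.00962) was lost without adult replicate 2 or P0 replicate 2. Itgb2 and Lamb3 rose from low levels, Itgb2 by 1.3 and Lamb3 by 0.77 (lost without P0 replicate 2). All 9 macrophage and leukocyte markers were called higher beside Itgb2, with summed levels of 152 to 199 FPKM in the adult and 35.0 to 43.4 FPKM at P0, and their part in its rise was not tested.

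Lama4 had 19.9 and 17.9 FPKM in the adult, against 70.0 and 65.3 FPKM at P0, and fell by 1.79 ± 0.10 (limma adjusted p = 4.75e-08). Lamc1 had 65.7 and 65.8 FPKM in the adult, against 144 and 133 FPKM at P0, and fell by 1.06 ± 0.14 (limma adjusted p = 4.32e-05). In both laminin chains the adult libraries lay far below all 6 neonatal ones. The 7 endothelial markers summed to between 189 and 210 FPKM in the adult and to between 225 and 277 FPKM at P0, 1 of them called higher and 2 lower.

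Itga5 had 13.5 and 16.3 FPKM in the adult, against 39.5 and 34.3 FPKM at P0, and fell by 1.25 ± 0.16 (limma adjusted p = 3.57e-05). Itga3, a receptor for laminins with alpha 3 or alpha 5, had 3.92 and 2.87 FPKM in the adult, against 8.25 and 8.03 FPKM at P0, a fall of 1.07 ± 0.22 (limma adjusted p = 0.0011). Itga8, which binds nephronectin, had 1.75 and 0.902 FPKM in the adult, against 6.01 and 5.39 FPKM at P0, and fell by 1.55 ± 0.26 (limma adjusted p = 0.000314). None of these 3 alpha chains had an adult library at the level of a P0 library. The ratio of Itga7 to Itga5 was 3.73 ± 0.501 in the adult and 0.243 ± 0.0134 at P0 (SD, n = 2 each).

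The collagen receptor Itga1 had 7.97 and 6.63 FPKM in the adult, against 11.8 and 14.8 FPKM at P0, a change of -0.78 ± 0.16 (limma adjusted p = 0.00115). Itgb1 had 198 and 184 FPKM in the adult, against 274 and 288 FPKM at P0, a change of -0.56 ± 0.15 (limma adjusted p = 0.00719). Calls of Itga1, Itgb1 and Itgb3 (-0.66) were among those lost under median-of-ratios scaling, and relative to the median of all genes Itgb1 was lower by only 0.20. The call of Itgb1 was also lost without adult replicate 2. The low collagen receptor chain Itga2 fell by 1.17. Lama5, at 13.6 and 10.4 FPKM in the adult and at 12.3 and 11.9 FPKM at P0, was not called, and its sign turned positive (0.41, limma adjusted p = 0.0466) under median-of-ratios scaling.

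The partners of the chains were read from lists of related genes. Of 14 basement membrane partners, 3 were higher and 11 lower in the adult, with a median of -0.96, beside 43.6% of all genes lower and a median of -0.36 over all genes. The endostatin precursor Col18a1 (-3.20) and nidogen 2, Nid2 (-2.20), were the largest. Of 17 other matrix ligands 1 was higher and 10 lower, and of 21 adhesion adaptors 4 were higher and 12 lower. The 11 laminin receptors outside the integrin family and their muscle complex had 5 higher and 4 lower, with a median of 0.37. Under median-of-ratios scaling 3 basement membrane partners were higher and 8 lower, 4 matrix ligands higher and 8 lower, 7 adaptors higher and 9 lower, and 7 of the other receptors higher and 2 lower. The muscle beta 1 partner melusin, Itgb1bp2, had 124 and 117 FPKM in the adult, against 74.1 and 76.5 FPKM at P0, and rose by 0.67 (limma adjusted p = 0.0317).

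**Figure D2:**
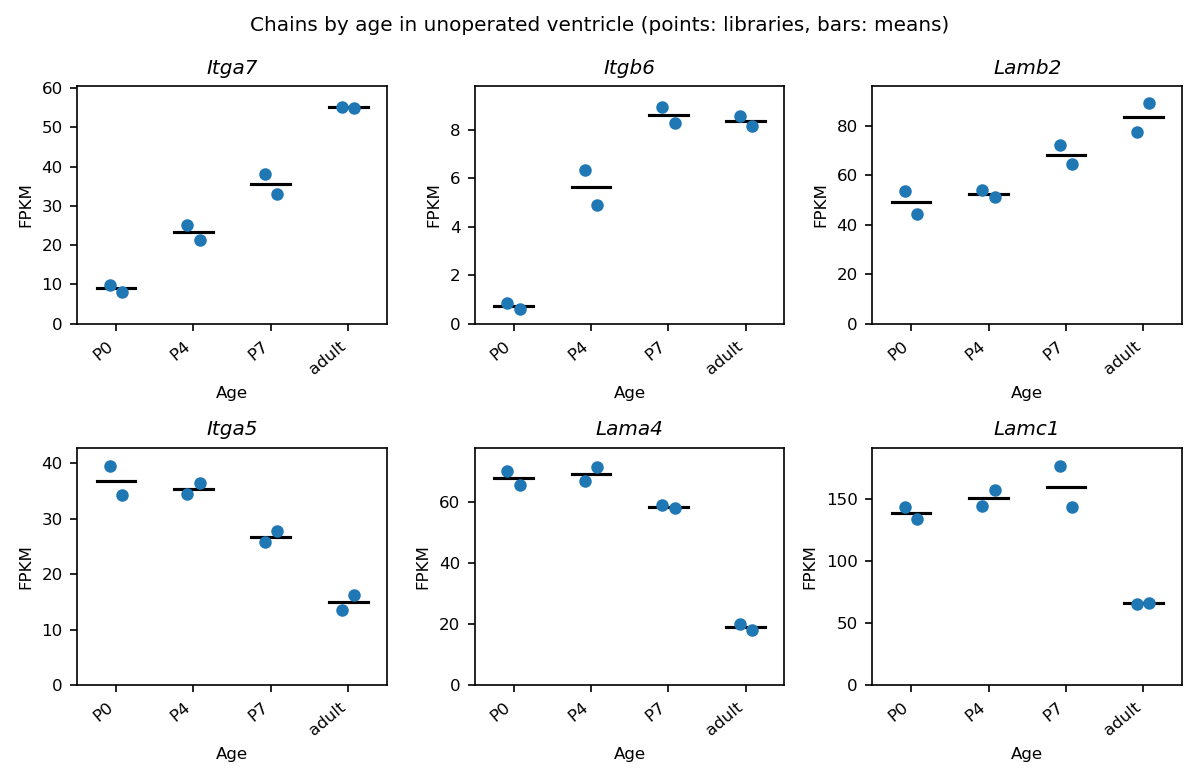
FPKM of 6 chains in unoperated ventricle by age, with each library as a point and the group mean as a bar (n = 2 per age). Itga7 climbs at each age to 55.2 and 54.9 FPKM in the adult, Itgb6 is at its adult level by P7, and Itga5, Lama4 and Lamc1 are lowest in the adult.

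In isolated cells, P4 was compared with P0. None of the 21 members tested was called with limma, beside 0.00761% of all genes, and 4 members had an unadjusted p under 0.05. Itga7 had 13.4, 13.4 and 12.8 FPKM at P4, against 7.02, 6.98 and 8.19 FPKM at P0. The libraries of the 2 ages did not overlap, but the change of 0.76 ± 0.23 was not called (limma adjusted p = 1). The estimates of the 21 members lay between -0.51 and 0.76.

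Isolated cells and whole ventricle of the same age differed. In this comparison preparation and library method cannot be told apart, since the labels do not say which library protocol each library used. At P0, 1 member was higher and 17 were lower in isolated cells among 24 tested, beside 54.5% of all genes called (0.708% higher and 53.7% lower), and the median of all genes was -0.57. Among all genes 1.3% of calls were higher, against 45.4% under median-of-ratios scaling. Under that scaling, and likewise with quantile normalization, 1 member was called, Itga10. The largest difference was in Lama4, at 14.5, 16.2 and 28.7 FPKM in isolated cells and at 70.0 and 65.3 FPKM in ventricle, which differed by -1.79 ± 0.38 (limma adjusted p = 0.000723). Lamc1 had 45.2, 42.4 and 74.2 FPKM in isolated cells and 144 and 133 FPKM in ventricle, a difference of -1.39 ± 0.33 (limma adjusted p = 0.00164). The highest isolated library in both chains was replicate 3, which also had the most Cdh5, an endothelial cadherin, at 25.5 FPKM beside 3.49 and 2.75 FPKM in the others. Replicate 3 was also the highest isolated P0 library in Itgb1, Itga1, Itga5, Itga9, Itgb5, Lamb2 and Lama5, though not in Itga8 or Itgav. The part of endothelial RNA in the levels of Lama4 and Lamc1 was not tested.

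Itgb1 had 136, 139 and 184 FPKM in isolated cells and 274 and 288 FPKM in ventricle (-0.88, limma adjusted p = 0.000771). Itga8 had 2.45, 2.17 and 1.48 FPKM in isolated cells and 6.01 and 5.39 FPKM in ventricle (-1.16, limma adjusted p = 0.000645). Itga1 had 4.62, 4.88 and 7.08 FPKM in isolated cells and 11.8 and 14.8 FPKM in ventricle (-1.15, limma adjusted p = 0.00475). All isolated libraries were below both ventricle libraries in these 3 genes, and the same held for the other called chains above 5 FPKM. Itgav had 4.82, 3.30 and 4.01 FPKM in isolated cells and 10.9 and 9.04 FPKM in ventricle (-1.13, limma adjusted p = 0.00313). Itga5 had 15.4, 15.5 and 24.1 FPKM in isolated cells and 39.5 and 34.3 FPKM in ventricle (-1.0, limma adjusted p = 0.00416).

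Smaller differences were found in Itga9 (-0.88), Lamb2 (-0.76), Itgb5 (-0.67) and Lama5 (-0.55). Itga9 had 7.51, 7.42 and 10.4 FPKM in isolated cells and 19.4 and 13.4 FPKM in ventricle, and Lamb2 had 24.6, 24.8 and 37.8 FPKM in isolated cells and 53.5 and 44.6 FPKM in ventricle. Itgb5 had 16.4, 16.5 and 17.3 FPKM in isolated cells and 29.7 and 24.9 FPKM in ventricle, and Lama5 had 7.01, 6.89 and 10.4 FPKM in isolated cells and 12.3 and 11.9 FPKM in ventricle. The direction of these last 2 depended on scaling, with Itgb5 at 0.07 and Lama5 at 0.15 under median-of-ratios scaling. Among low members Itgb3 (-1.01), Itga2 (-0.99), Itgam (-0.64), Itgb2 (-0.52) and Lama3 (-0.51) were called lower and Itga10 (0.39) higher. Itga7 was not called, at 7.02, 6.98 and 8.19 FPKM in isolated cells and 9.96 and 7.99 FPKM in ventricle.

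Fresh adult cardiomyocytes (explants at 0 h) were set against adult ventricle in the same way. Here too preparation and library method cannot be told apart. Of 24 members tested none was higher and 12 were lower, beside 33.5% of all genes (1.81% higher and 31.7% lower), with medians of -0.61 for the members and -0.37 for all genes. Among all genes 5.4% of calls were higher, against 47.3% under median-of-ratios scaling. Lamc1 had 10.4 and 15.9 FPKM in fresh cells and 65.7 and 65.8 FPKM in ventricle, a difference of -2.26 ± 0.36 (limma adjusted p = 5.43e-05). Lama4 had 3.03 and 3.79 FPKM in fresh cells and 19.9 and 17.9 FPKM in ventricle, a difference of -2.18 ± 0.41 (limma adjusted p = 0.000364). Both were also called lower under each scaling, and the endothelial markers summed to 26.0 and 55.8 FPKM in fresh cells and to 189 and 210 FPKM in ventricle.

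Lamb2 and Itga7 were not called. Lamb2 had 86.2 and 59.3 FPKM in fresh cells and 77.7 and 89.3 FPKM in ventricle, and Itga7 had 53.0 and 38.0 FPKM in fresh cells and 55.2 and 54.9 FPKM in ventricle. Of the summed level of the 9 laminin chains analysed, Lamb2 thus held 68.8% in fresh cells and 44.7% in ventricle. Lama2 and Lamb1 are not in these sums, so they are not shares of all laminin RNA. Itgb6 had 4.59 and 2.72 FPKM in fresh cells and 8.55 and 8.14 FPKM in ventricle (-1.04 ± 0.28, limma adjusted p = 0.00724). Itga5 had 8.09 and 5.87 FPKM in fresh cells and 13.5 and 16.3 FPKM in ventricle (-1.0 ± 0.30, limma adjusted p = 0.0113). Itga1 had 2.52 and 3.30 FPKM in fresh cells and 7.97 and 6.63 FPKM in ventricle (-1.09), Itgav had 4.53 and 3.64 FPKM in fresh cells and 7.89 and 8.81 FPKM in ventricle (-0.88), and Itgb5 had 15.9 and 11.6 FPKM in fresh cells and 24 and 25 FPKM in ventricle (-0.80). These calls of alpha and beta chains were lost under both other scalings. The other called members were Itgb2 (-1.82), Itgam (-1.07), Itgb3 (-0.92), Itga8 (-0.88) and Itga2b (-0.76), and 7 members were called under median-of-ratios scaling and 6 with quantile normalization. One of those was higher in fresh cells, Lamb3, at 0.59 under median-of-ratios scaling and 0.73 with quantile normalization.

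The next question was what culture does to adult cardiomyocytes. By 72 h, Lamc1, Itga7, the fibronectin receptor Itga5, Itgav, Itga3 and Lama5 had risen, and Itgb6, Lamb3 and Itga1 had fallen. Of 5 cardiomyocyte markers 4 were also called lower.

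At 24 h, 3 of 16 members tested were called, 2 higher and 1 lower, beside 17.9% of all genes (15.4% higher and 2.55% lower). The medians were 0.38 for the members and 0.37 for all genes. Among all genes 85.8% of calls were higher, against 38.1% after median-of-ratios scaling. Lamc1 had 34.0 and 33.5 FPKM at 24 h, against 10.4 and 15.9 FPKM at 0 h (1.32 ± 0.26, limma adjusted p = 0.0196). Lama5 had 17.6 and 17.3 FPKM at 24 h, against 9.43 and 10.6 FPKM at 0 h (0.75 ± 0.20, limma adjusted p = 0.0428). Neither pair of libraries overlapped, but both calls were lost under both other scalings and without either 24 h library or 0 h replicate 1. Lamb3 was called lower at -1.78, with 0.208 and 0.364 FPKM at 24 h and 3.42 and 3.41 FPKM at 0 h, a call lost without 24 h replicate 1. Leaving out 1 library of 4 left 0 or 1 member called.

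At 72 h, 11 of 16 members tested were called, 8 higher and 3 lower, beside 55.8% of all genes (46.8% higher and 9.07% lower). The median of the members was 0.72 and that of all genes 0.76. The changes of Lamc1, Itga7 and Itgb1 are given against that shift as well, and those of the other chains include it. Among all genes 83.8% of calls were higher, against 42.9% after median-of-ratios scaling, under which 6 members were higher and 5 lower.

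Lamc1 had 10.4 and 15.9 FPKM at 0 h, 34.0 and 33.5 FPKM at 24 h, 81.3 and 58.7 FPKM at 48 h and 100 and 103 FPKM at 72 h. Each time point lay above the one before in both libraries. At 72 h Lamc1 was 2.88 ± 0.26 above 0 h (limma adjusted p = 0.00046), or 2.12 above the shift of all genes. Itga7 had 53.0 and 38.0 FPKM at 0 h, 93.2 and 66.8 FPKM at 24 h, 90.0 and 134 FPKM at 48 h and 226 and 268 FPKM at 72 h. The 72 h libraries were the highest of all 36, and the change from 0 h was 2.43 ± 0.29 (limma adjusted p = 0.000995), or 1.67 above the shift.

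Itga5 had 8.09 and 5.87 FPKM at 0 h, 20.1 and 12.1 FPKM at 24 h, 33.5 and 17.1 FPKM at 48 h and 51.3 and 26.6 FPKM at 72 h. Replicate 1 was the higher at each time, and the change at 72 h was 2.27 ± 0.44 (limma adjusted p = 0.00464). Its ligand Fn1 had 6.79 and 11.3 FPKM at 72 h, against 1.36 and 1.26 FPKM at 0 h, and rose by 2.08 (limma adjusted p = 0.00142). Itgav had 14.5 and 17.9 FPKM at 72 h, against 4.53 and 3.64 FPKM at 0 h, a rise of 1.76 ± 0.26 (limma adjusted p = 0.00192). Osteopontin (Spp1), a ligand of alpha V integrins, had 10.8 and 51.3 FPKM at 72 h and was listed at 0 FPKM in both 0 h libraries. Vitronectin (Vtn), another ligand of alpha V, had 0 and 0.0571 FPKM at 72 h, against 1.09 and 1.14 FPKM at 0 h, and fell by 1.04 (limma adjusted p = 0.00664).

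Itga3 had 12.3 and 10.6 FPKM at 72 h, against 2.49 and 3.50 FPKM at 0 h, a rise of 1.65 ± 0.22 (limma adjusted p = 0.00139). Lama5 had 33.3 and 26.8 FPKM at 72 h, against 9.43 and 10.6 FPKM at 0 h, a rise of 1.49 ± 0.20 (limma adjusted p = 0.00135). In both genes the 72 h libraries were above every earlier explant library. Itgb1 had 231 and 274 FPKM at 72 h, against 145 and 153 FPKM at 0 h, which was called at 0.75 ± 0.21 (limma adjusted p = 0.0174) but lay 0.01 below the shift of all genes and turned to -0.17 under median-of-ratios scaling. That call was also lost without 72 h replicate 2 or either 0 h library. Itga2b, at 1.36 and 1.26 FPKM at 72 h and 0.330 and 0.535 FPKM at 0 h, was called at 0.69, which both other scalings removed.

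On the falling side, Itgb6 had 4.59 and 2.72 FPKM at 0 h, 9.57 and 5.97 FPKM at 24 h, 0.809 and 0.448 FPKM at 48 h and 0.428 and 0.274 FPKM at 72 h. It was thus highest at 24 h, and at 72 h it was called at -1.76 (limma adjusted p = 0.00323). Lamb3 was listed at 0 and 0.0326 FPKM at 72 h and called at -2.12, and Itga1 had 0.629 and 0.462 FPKM at 72 h, against 2.52 and 3.30 FPKM at 0 h (-1.33). Lamb2, at 62.1 and 56.0 FPKM at 72 h and 86.2 and 59.3 FPKM at 0 h, was not called, though it was lower under median-of-ratios scaling (-1.18, limma adjusted p = 0.00506) and quantile normalization (-0.65, limma adjusted p = 0.045). Lama4, at 2.88 and 1.34 FPKM at 72 h and 3.03 and 3.79 FPKM at 0 h, was likewise called lower under those 2 scalings (-1.22 and -1.26) and without 72 h replicate 1 (-0.91).

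Shares were taken of the summed level of the 9 laminin chains analysed, which leaves out Lama2 and Lamb1. The share held by Lamb2 was 68.8% at 0 h, 56.3% at 24 h, 38.1% at 48 h and 30.2% at 72 h. That of Lamc1 was 13.0%, 26.1%, 47.8% and 52.1% at the same times. Of 19 adhesion adaptors 10 were higher and 4 lower at 72 h, the largest being Itgb1bp2, at 0.867 and 2.83 FPKM at 72 h and 120 and 135 FPKM at 0 h (-5.59, limma adjusted p = 0.000182), with the cytoskeletal protein zyxin, Zyx, higher by 1.91. Of 13 other matrix ligands 7 were higher and 1 was lower, of 10 basement membrane partners none was higher and 1 was lower, and of 11 other laminin receptors none was higher and 4 were lower. Of all genes 46.8% were higher and 9.07% lower, with a median of 0.76. Under median-of-ratios scaling the balance of the adaptors turned, with 2 higher and 7 lower. Of the matrix ligands 3 were then higher and 3 lower, of the basement membrane partners 3 were lower and of the other receptors 7 were lower, with none higher in these last 2 lists.

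The markers of other cells moved as well. The leukocyte chains Itgb2 and Itgam stayed at or below 0.451 FPKM in all 8 explant libraries, while the lysosomal macrophage marker Cd68 had 127 and 70.5 FPKM at 72 h, against 1.08 and 0.398 FPKM at 0 h. All 3 macrophage markers tested were called higher, Csf1r by 2.66 and Lyz2 by 1.54 beside Cd68, while the other 6 of that list stayed below 1 FPKM at 72 h. All 6 epicardial markers tested were called higher, from 1.13 for Lrrn4 to 1.96 for Upk1b, with sums of 14.0 to 23.0 FPKM at 72 h and 2.63 to 4.56 FPKM at 0 h. Of 4 mural markers tested Acta2 (-4.66) and Rgs5 (-2.58) were called lower, and the list summed to between 8.70 and 12.2 FPKM at 72 h and between 74.5 and 114 FPKM at 0 h. The cardiomyocyte markers summed to 2080 and 2504 FPKM at 72 h and to 14350 and 18750 FPKM at 0 h. These sums include Myh6, which was not called and varied widely between libraries (1.40 ± 3.18). The next widest error in the list was 0.388, for Ryr2. The 7 endothelial markers summed to 9.54 and 14.6 FPKM at 72 h and 26.0 and 55.8 FPKM at 0 h (4 called lower). Among fibroblast markers Col1a1 (1.03) and Ddr2 (1.00) were called higher, while Dcn, Lum and Dpt were not called. The part of these cell types in the chain levels was not tested.

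**Figure D3:**
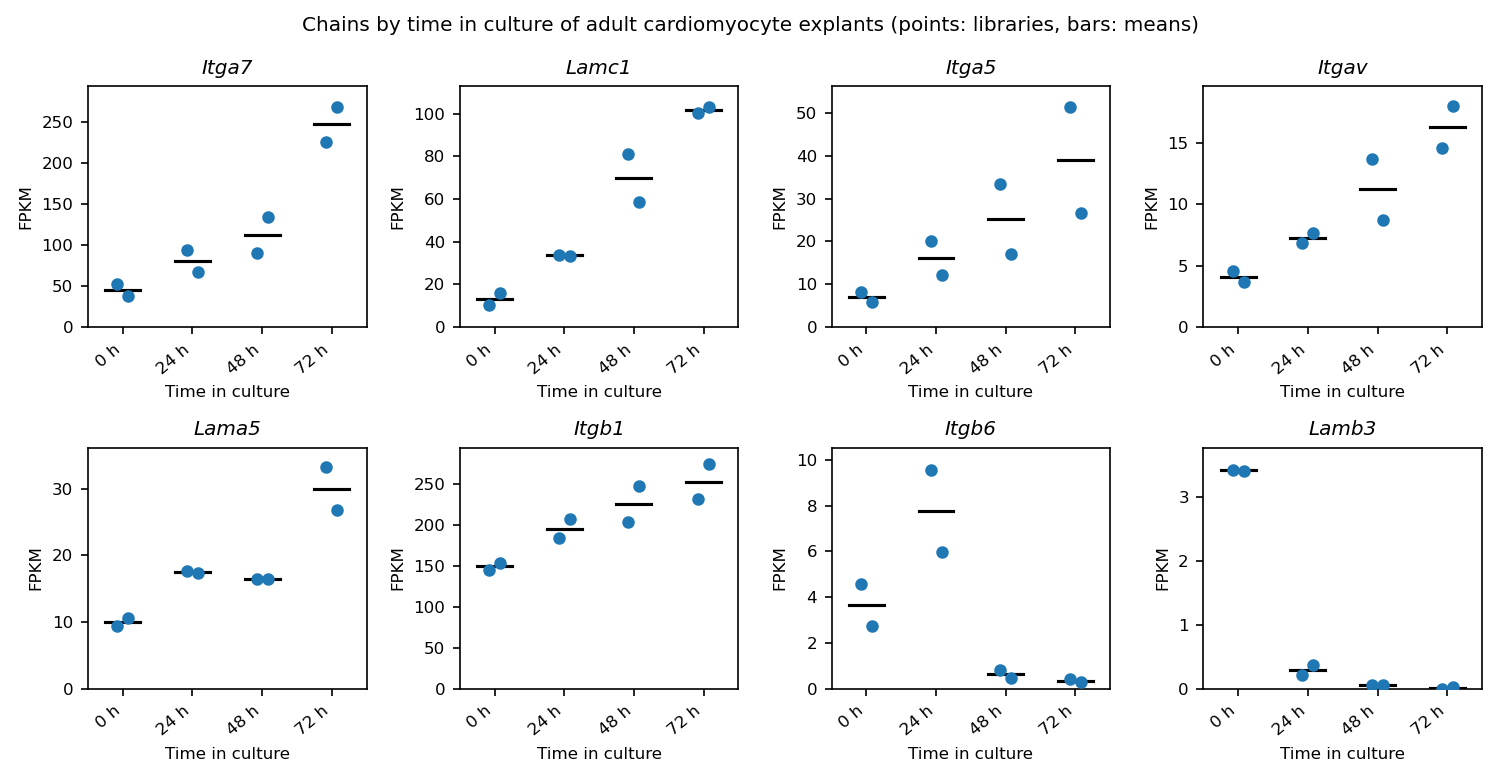
FPKM of 8 chains in adult cardiomyocyte explants by time in culture, with each library as a point and the mean as a bar (n = 2 per time). Lamc1 and Itga7 end at 100 to 103 and 226 to 268 FPKM, Itgb6 peaks at 24 h, and Lamb3 is near 0 from 24 h on.

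Resection removes part of the heart, and sham surgery controls for the operation. One day after surgery, the leukocyte chains Itgam and Itgb2 and the chains Itga5 and Itgb3 were lower in resected than in sham ventricle. Of 22 members tested 4 were lower and none higher, beside 10.3% of all genes called (1.38% higher and 8.88% lower). The medians were -0.18 for the members and -0.16 for all genes. Among all genes 13.5% of calls were higher, against 45.1% after median-of-ratios scaling, under which Lama4 was called higher at 0.36.

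Itgam, the alpha chain of the neutrophil and macrophage receptor Mac-1, had 0.907 and 1.79 FPKM after resection, against 9.75 and 17.2 FPKM after sham. The sham libraries were the highest of all 36, and the change was -2.60 ± 0.27 (limma adjusted p = 0.000263). Its partner Itgb2 had 0.892 and 0.994 FPKM after resection, against 2.62 and 5.08 FPKM after sham, a change of -1.27 ± 0.23 (limma adjusted p = 0.00699) that was lost without sham replicate 2. The 7 neutrophil markers, with 2 of 4 tested called lower, summed to 28.2 and 47.1 FPKM after resection and to 85.4 and 155 FPKM after sham. The 9 macrophage and leukocyte markers, with 5 called lower, summed to 38.7 and 42.2 FPKM after resection and to 84.9 and 123 FPKM after sham. Their part in these 2 chains was not tested.

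Itga5 had 10.1 and 11.5 FPKM after resection, against 20.4 and 17.5 FPKM after sham, a change of -0.76 ± 0.16 (limma adjusted p = 0.014). Both resected libraries were below both sham libraries, but the call was lost without resection replicate 1 or either sham library. Itgb3 was called at -0.76 (limma adjusted p = 0.0254), with 1.79 and 2.24 FPKM after resection and 3.18 and 5.21 FPKM after sham. That call was lost under both other scalings. The 8 platelet markers, with 1 of 3 tested called lower, summed to 10.2 and 13.0 FPKM after resection and to 18 and 35.4 FPKM after sham, and Itga2b, the platelet partner of Itgb3, was not called, at 1.10 and 1.45 FPKM after resection and 1.05 and 2.10 FPKM after sham. Spp1, a ligand of both alpha V and alpha 9 integrins, was called at -3.13 (limma adjusted p = 0.000333), with 11.9 and 8.27 FPKM after resection and 89.8 and 101 FPKM after sham.

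Some vessel markers were called lower in the same comparison, beside 8.88% of all genes. The vessel laminin Lama4 was not called, at 45.7 and 47.5 FPKM after resection and 42.6 and 40.9 FPKM after sham. Of 7 endothelial markers Flt1 (-0.80) and Tie1 (-0.73) were called lower, and the list summed to between 139 and 182 FPKM after resection and between 209 and 218 FPKM after sham. Of 8 mural markers Cnn1 (-1.01), Cspg4 (-0.74) and Kcnj8 (-0.58) were called lower, and the list summed to between 297 and 341 FPKM after resection and between 358 and 481 FPKM after sham. Their part in Itga5 and Itgb3 was not tested.

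At day 7 none of the 22 members was called in ventricle with limma, beside 0.154% of all genes (0.147% higher and 0.00699% lower), and 4 had an unadjusted p under 0.05. Itgav had 14.7 and 19.0 FPKM after resection, against 11.1 and 9.15 FPKM after sham, and Itgb2 had 2.75 and 1.61 FPKM after resection, against 0.813 and 0.760 FPKM after sham. In both the resected libraries lay above the sham ones. Of 7 lung genes tested 4 were called higher after resection. No macrophage or neutrophil marker was called, but all those tested had positive estimates. They ran from 0.18 (Cd14) to 1.15 (Lyz2) for macrophage and leukocyte markers and from 0.22 (Retnlg) to 1.46 (S100a8) for neutrophil markers. The part of lung or leukocyte RNA in Itgav and Itgb2 was not tested. Itgam, with 3.03 and 1.80 FPKM after resection and 1.90 and 1.51 FPKM after sham, overlapped. Spp1 was called higher after resection, at 2.31 (limma adjusted p = 0.0166).

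The effect of resection differed between the days in 6 members, all with a more positive effect at day 7, beside 5.93% of all genes (5.69% higher and 0.245% lower). Among all genes 95.9% of these calls were higher, against 68.2% under median-of-ratios scaling. The difference (day 7 effect minus day 1 effect) was 2.92 ± 0.38 for Itgam (limma adjusted p = 0.00226) and 2.08 ± 0.32 for Itgb2 (limma adjusted p = 0.00499). It was 1.10 ± 0.25 for Itgav (limma adjusted p = 0.028), 1.07 ± 0.23 for Itga5 (limma adjusted p = 0.0206), 1.05 ± 0.26 for Itgb3 (limma adjusted p = 0.0368) and 1.05 ± 0.23 for Lama5 (limma adjusted p = 0.025). Lama5 had 2.06 and 2.14 FPKM after resection and 2.99 and 4.12 FPKM after sham at day 1, and 2.49 and 1.87 FPKM after resection and 1.44 and 1.05 FPKM after sham at day 7. Under median-of-ratios scaling Lama4 was called the other way, with a more negative effect at day 7 (-0.58, limma adjusted p = 0.0472). The calls of Itgam and Itgb2 held under every setting run. The other 4 were lost under both other scalings and without at least 1 day 1 library, and leaving out 1 library of 8 left between 2 and 6 called.

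**Figure D4:**
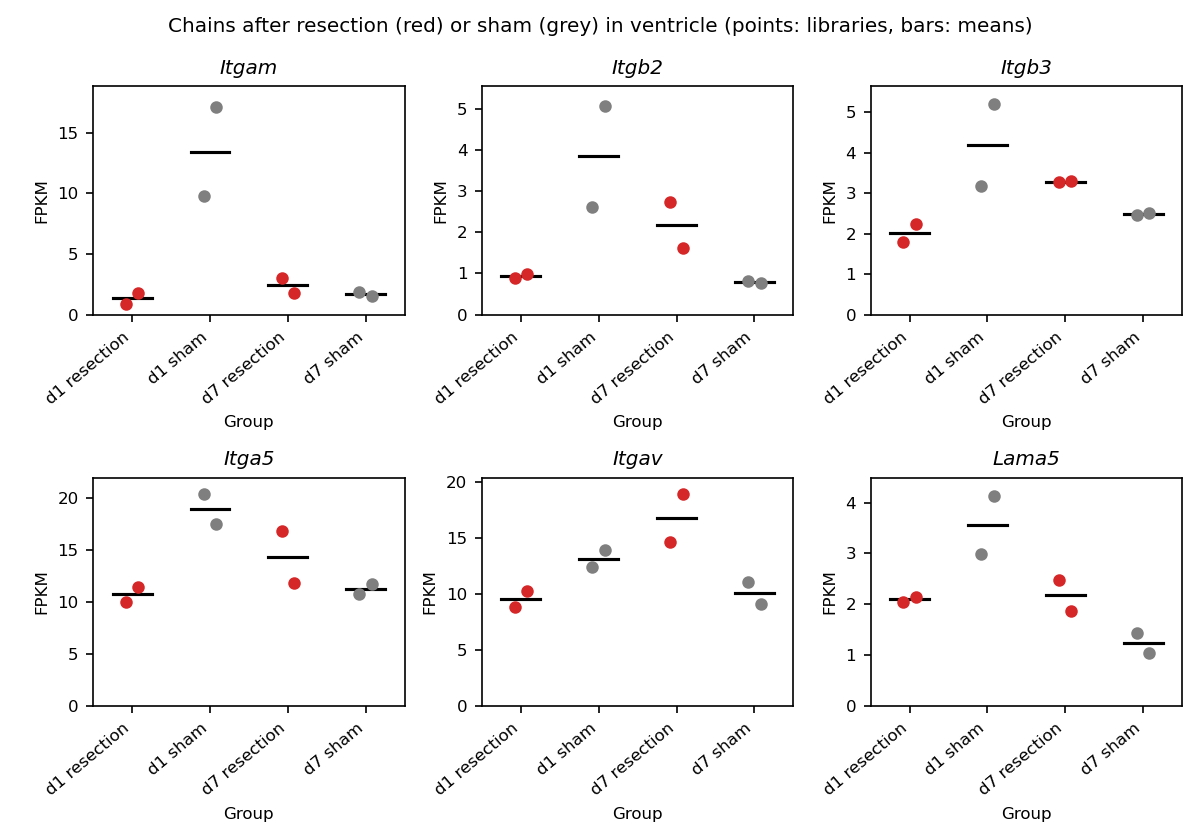
FPKM of 6 chains in ventricle 1 and 7 days after resection (red) or sham (grey), with each library as a point and the mean as a bar (n = 2 per group). Itgam at day 1 separates widely, with 0.907 and 1.79 FPKM after resection and 9.75 and 17.2 FPKM after sham, and the groups lie closer at day 7.

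In isolated cells at day 7, 1 of 21 members was called, higher after resection, beside 1.08% of all genes (1.07% higher and 0.00761% lower), and 10 had an unadjusted p under 0.05. Itga8, known from smooth muscle and mesenchymal cells, had 5.58, 6.24 and 6.97 FPKM after resection, against 1.49, 1.72 and 2.99 FPKM after sham. The groups did not overlap, and the change was 1.27 ± 0.22 (limma adjusted p = 0.018). The call was lost without resection replicate 3 or without sham replicate 1 or 2. All 9 lung epithelial genes were called higher beside it, as was nephronectin (Npnt), a ligand of alpha 8 (2.45, limma adjusted p = 0.0015). Of 6 atrial markers 4 were also called higher, Myl7 (5.78), Sln (4.88), Myl4 (4.40) and Nppa (3.26), and the list summed to between 732 and 1319 FPKM after resection and between 43.5 and 93.7 FPKM after sham. The macrophage marker Lyz2 was called at 2.45. No fibroblast or mural marker was called. The fibroblast estimates were all positive, from 1.1 for Ddr2 to 2.0 for Dpt, and the mural ones ran from -0.42 for Rgs5 to 1.17 for Tagln. The part of lung, atrial, macrophage, fibroblast or mural RNA in Itga8 was not tested.

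The median of the members here was 0.50, beside 0.13 for all genes. Itgav had 6.05, 12.2 and 8.88 FPKM after resection, against 3.07, 2.57 and 8.76 FPKM after sham, with sham replicate 3 inside the range of the resected libraries (0.90, limma adjusted p = 0.26). Without sham replicate 3, 7 members were called, among them Itga8, Itgav (1.35), Itgb3 (1.02), Itgb5 (0.94), Lamb3 (0.91) and Lama5 (0.89). Calls over all genes then rose as well, from 142 to 756. Lama4 had 33.8, 86.3 and 18.6 FPKM after resection and 46.3, 50 and 77.6 FPKM after sham, which overlapped widely. Cdh5 had 48.0, 129 and 4.55 FPKM in the same resected libraries and 152, 159 and 136 FPKM after sham. The day 7 resection effect was not called as different between isolated cells and ventricle in any of 24 members, beside 0.0735% of all genes (0.0401% higher and 0.0334% lower), with 6 members at an unadjusted limma p under 0.05. Its largest estimate was in Itga8 (1.43, limma adjusted p = 0.111), which was called with quantile normalization (1.66), without isolated sham replicate 3 (1.63) and without ventricle sham replicate 1 (1.76).

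The last comparison was added after the values had been seen. Sham ventricle at day 7 was set against unoperated P7 ventricle, because several chains separated all operated from all unoperated libraries. Lamb2 was the clearest, with 4.39 to 10.9 FPKM (median 7.83) in the 8 operated libraries and 44.6 to 89.3 FPKM (median 59.3) in the 8 unoperated ones. The ranges lay far apart, whichever operation had been done. Of 22 members tested, 1 was higher and 6 were lower in day 7 sham than in P7 ventricle, beside 42% of all genes (17.1% higher and 24.9% lower). Of calls over all genes 40.8% were higher, against 54.2% with quantile normalization, under which 3 members were higher and 8 lower.

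Lamb2 had 8.54 and 9.94 FPKM in day 7 sham and 72.1 and 64.7 FPKM at P7, a difference of -2.76 ± 0.22 (limma adjusted p = 7.19e-07). Itga7 had 11.3 and 11.2 FPKM in day 7 sham and 38.0 and 33.1 FPKM at P7 (-1.58 ± 0.18, limma adjusted p = 1.75e-05). Lama5 had 1.44 and 1.05 FPKM in day 7 sham and 6.16 and 6.31 FPKM at P7 (-1.69 ± 0.17, limma adjusted p = 4.62e-06). In all 3 genes the sham libraries lay far below those at P7. Itga5 had 10.8 and 11.7 FPKM in day 7 sham and 25.7 and 27.8 FPKM at P7 (-1.18 ± 0.16, limma adjusted p = 8.33e-05), and Itga3 had 1.14 and 1.84 FPKM in day 7 sham and 5.33 and 5.51 FPKM at P7 (-1.38 ± 0.22, limma adjusted p = 0.000231). Itgb6 had 5.87 and 3.75 FPKM in day 7 sham and 8.92 and 8.27 FPKM at P7 (-0.75, limma adjusted p = 0.00664), a call lost without day 7 sham replicate 2. Itgb1 was higher, at 475 and 425 FPKM in day 7 sham and 283 and 274 FPKM at P7 (0.69 ± 0.15, limma adjusted p = 0.00265), a call lost under quantile normalization.

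Several chains were not called. Lamc1 had 133 and 146 FPKM in day 7 sham and 176 and 143 FPKM at P7, though it was called lower under quantile normalization (-0.57). Itgb5 had 26.3 and 24.8 FPKM in day 7 sham and 24.4 and 24.7 FPKM at P7. Among 17 members with at least 5 FPKM in a ventricle library, 5 (Itga3, Itga5, Lama4, Lama5 and Lamb2) were lower in all 8 operated than in all 6 neonatal unoperated libraries, 1 (Itgb1) was higher in all 8, and 11 overlapped. Of the 10556 gene models at that level, 35.1% separated in the same way (14.9% higher and 20.1% lower). Surgery, age and the library method cannot be told apart here, since the labels give neither the age at surgery nor which of the 2 library protocols each library used. In isolated cells the Lamb2 ranges overlapped, at 38.2, 42.9 and 47.8 FPKM 7 days after resection and 29.9, 28.2 and 39.0 FPKM after sham, with 38.3, 32.6 and 35.8 FPKM at P4 and 24.6, 24.8 and 37.8 FPKM at P0.

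**Figure D5:**
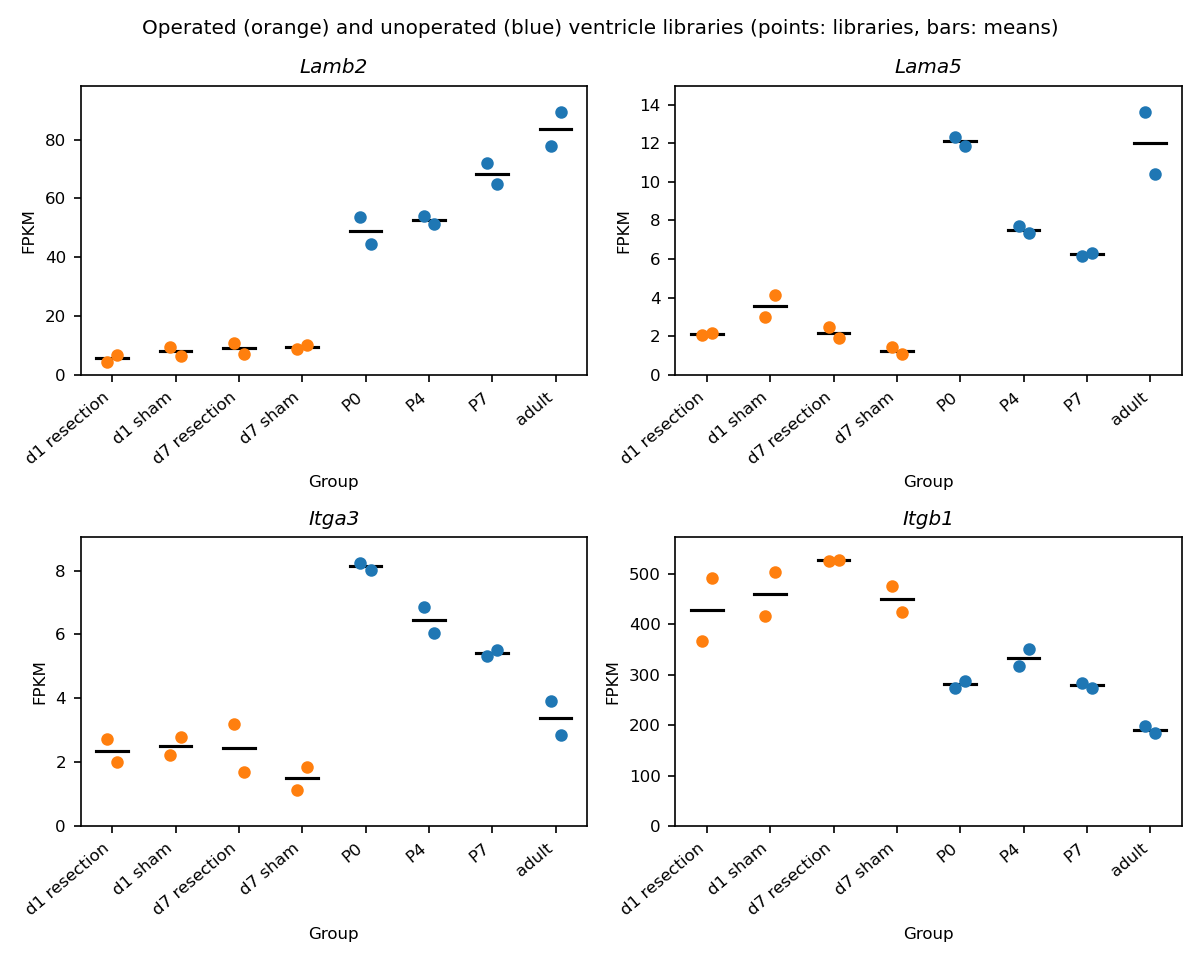
FPKM of 4 chains in the 8 ventricle groups, operated in orange and unoperated in blue, with each library as a point and the mean as a bar (n = 2 per group). Lamb2 stays at or below 10.9 FPKM in every operated library and at or above 44.6 FPKM in every unoperated one, and Itgb1 is higher in the operated ones.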

How the data were processed

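Trizol RNA was sequenced by the authors on Illumina instruments (GA-2 or Hi-Seq), from libraries made by an earlier protocol or a TruSeq kit, per the labels' protocols. The deposited FPKM table came from the authors' processing, for which the submitters' processing notes name TopHat 1.3.2, Bowtie 0.12.7, Cufflinks 1.2.1, Cuffdiff (version not stated) and build mm9; the annotation is not given in the sources used here. No step of whole reads was derived from the low values, so sequencing depth is unknown. The values come without an estimate of their counting error, and none was made here. Per library, 10454 to 13134 gene models had at least 1 FPKM.

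Where a symbol had several rows, the row with the highest mean was used. Group means were fitted to log2(FPKM + 1) with limma 3.58.1 under R 4.3.3, with a variance trend, over the 12 isolated, 16 ventricle or 8 explant libraries, or over all 36 for comparisons between preparations. Genes needed at least 1 FPKM in at least 2 libraries of the fit. All tests were two-sided, errors of log2 changes are standard errors, and the fit was tested on simulated data. The members, 4 lists of related genes (65 of 72 genes found) and 13 lists of cell type markers (93 of 96 found) were chosen with earlier results of these data known. Called members with a group mean of at least 5 FPKM got values per library, up to 12 a comparison, and other called members their change; Spp1 levels, Cdh5 and Cd68 were chosen after their values were seen, as were the list counts under median-of-ratios scaling and the share of all gene models that separated operated from unoperated ventricle. Each result was recomputed without the filter, with a pseudocount of 0.1, under 2 other scalings (median-of-ratios and quantile), with a replicate block and without each library. Values of 1 member and 1 listed gene are not reported here, though counts and medians include them.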

Additional observations from a re-analysis of the deposited data

Results flagged for a closer look

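The effect of resection on ventricle differed between 7 days and 1 day after surgery in 6 chains. The difference itself was tested with limma, and 5.93% of all genes were called. The day 7 effect exceeded the day 1 effect by 2.92 on the log2 scale for Itgam, 2.08 for Itgb2, 1.10 for Itgav, 1.07 for Itga5, 1.05 for Itgb3 and 1.05 for Lama5. Calls of Itgam and Itgb2 held under every setting run. Those of Itgav, Itga5, Itgb3 and Lama5 were lost under both other scalings. Each group had 2 libraries. Neutrophil markers summed to 33.4 and 35.7 FPKM after resection and 6.68 and 19.6 FPKM after sham at day 7, and to 28.2 and 47.1 FPKM after resection and 85.4 and 155 FPKM after sham at day 1; their part in these differences was not tested.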

How the results depend on the processing

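Of 82 called results of single chains over 13 comparisons, 33 kept direction and call under every setting. Without the filter on low values, 2 chains were called in isolated cells after resection. After resection, the difference between day 7 and day 1 was called in 3 chains under median-of-ratios scaling (2 higher, and Lama4 lower) and in 2 with quantile normalization. Isolated cells differed from P0 ventricle in 1 chain under either scaling, and fresh explants from adult ventricle in 7 and 6, 1 of them higher each time. Quantile normalization called 1 chain for isolated minus ventricle and 11 for day 7 sham against P7. Signs turned under median-of-ratios scaling for Lama5 in the adult (0.407), Itgb1 at 72 h (-0.167), and in P0 isolated cells for Itgb5 (0.07) and Lama5 (0.152, and 0.145 with quantile normalization). The causes were not tested.

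Leaving out 1 library at a time gave 0 to 7 called chains in isolated cells after resection, 3 to 4 at P7, 12 to 14 in the adult, 1 to 5 at day 1, 0 to 1 at 24 h, 8 to 11 at 72 h, 2 to 6 for day 7 minus day 1, 0 to 1 for isolated minus ventricle, 10 to 17 for P0 isolated cells against ventricle, 7 to 8 for fresh explants against adult ventricle and 6 to 8 for day 7 sham against P7. No chain was called in isolated P4 or ventricle day 7 under any of these.

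Counts over all genes moved by over 1.5 times as follows. The 1 gene of isolated P4 became 6 without the filter, 0 under median-of-ratios scaling, 3 with quantile normalization and 0 with the block, and the 142 of isolated day 7 became 265 without the filter. The 1468 of day 1 became 881 with quantile normalization, and the 22 of day 7 became 1 with pseudocount 0.1 and 75 without the filter. At 24 h 2194 became 1057 without the filter and 1059 with quantile normalization, and at 72 h 6837 became 4199 and 4227 under the 2 scalings. The 849 of day 7 minus day 1 became 327 and 232, the 11 of isolated minus ventricle 49 and 36 (124 without the filter), the 8148 of P0 isolated cells 1011 and 975, and the 5017 of fresh explants 2700 with quantile normalization. Leaving out 1 library moved them further, and the shares of all genes printed beside the chains rest on these totals. The count ran from 225 (without sham replicate 2) to 3042 (without resection replicate 2) at day 1 and from 192 to 2675 for day 7 minus day 1 without the same 2 libraries. It ran from 25 (without sham replicate 2) to 756 (without sham replicate 3) in isolated day 7 and from 56 (without 24 h replicate 1) to 261 (without 0 h replicate 2) at 24 h. It ran from 584 (without P7 replicate 1) to 1344 (without P0 replicate 2) at P7, from 5 to 46 at ventricle day 7, from 5 to 201 for isolated minus ventricle, from 4485 to 8545 for P0 isolated cells and from 2829 to 4816 for fresh explants. The adult, 72 h and added comparisons moved by less than 1.5 times, and isolated P4 gave 0 or 1.

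The replicate numbers carry no label of a shared litter or day. Same-numbered libraries correlated in their deviations at 0.552 and 0.385 in explants (2 pairs each), from -0.087 to 0.421 in isolated cells and from -0.135 to 0.066 in ventricle. With the replicate block 9 chains were called at 24 h (8 higher, 1 lower; Itga5, Itga7, Itgav, Itgb1, Itgb5 and Itgb6 in addition) and 4899 genes, and no other count of chains moved by over 1.5 times. With crossed numbers, chosen after seeing the data, 15 chains were called in the adult and 0 at day 7. Depth is unknown, so no limit of detection can be given.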
